A study of Drosophila melanogaster with 24 samples.

Results

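The genes described here encode the protein subunits of the Drosophila dosage compensation complex: msl-1, msl-2, msl-3, mle and mof. They were chosen by name and not by their values, although earlier results of these data were known. Their probe sets are those that the array's probe-to-gene table assigns to these symbols alone. All 5 genes were measured, by 6 of the 13647 probe sets with 1 gene, and they are 5 of the 11982 genes tested. Only msl-3 had more than 1 probe set. The RNA partners of the complex, roX1 and roX2, had no probe set of their own in that table and were not analysed here.

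Male flies carry 1 X chromosome, and their dosage compensation complex binds that chromosome and raises transcription from it. Its assembly depends on the male form of the sex determination cascade: in females the RNA-binding protein Sex-lethal (Sxl), together with its partner Unr, represses msl-2, and without the MSL2 protein the complex does not form on the X. The other subunits are made in both sexes and have, in part, roles outside the complex. MOF, for example, also works in the NSL complex, which acts at active promoters in both sexes.

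The RNA came from genital discs, the larval primordia of the internal and external genitalia, of females and males at 3 stages: wandering larvae late in the last instar (L3), prepupae about 6 h after puparium formation (P6) and pupae about 20 h after it (P20). Each of the 6 groups of sex and stage held 4 biological replicates, 1 array each (n = 4 arrays per group throughout). Animals of all 6 groups, with no group free of the transgenes, carried esgGAL4.B and UAS-GFP.nls over the balancer CyO, a green fluorescent marker under an esg driver that was used to find the discs. Larvae were sexed by gonad size, and the labels do not say how many discs went into an array.

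Values are log2 RMA (robust multi-array average) summaries as deposited and ranged from 2.04 to 14.51 over all probe sets. They are compared between samples for 1 probe set at a time, since the brightness of different probe sets is not a measure of relative abundance. Array medians lay between 5.04 and 5.18, and replicates correlated at 0.964 to 0.994. Both genes read as markers of the sex of the disc fitted the labels in every group: lz, a Runx factor gene of the female disc, averaged 9.31 to 10.68 in female groups and 3.52 to 4.65 in male groups, and Dr, an Msx homeobox gene of the male disc, averaged 10.34 to 11.04 in male and 4.48 to 6.37 in female groups. Of 7 genital disc markers 6 were measured, and the lowest group mean among them was 7.37, for Dll at P6 in females.

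In this material msl-2 and mof were lower in female than in male discs, msl-2 by about 1 log2 unit and mof by about 0.62. The sex difference of msl-2 passed the test at each stage and that of mof at P6 and P20, in a limma fit over all genes with Benjamini-Hochberg adjustment at 0.05. The other 3 members, msl-1, msl-3 and mle, did not pass in any comparison of the sexes. Over the stages, msl-2 and msl-1 rose between P6 and P20 in both sexes, where 26.3% of all genes in females and 25.7% in males were called. The rise of msl-1 in males was not called under some of the alternatives tried. The plot of every array's value by group shows these patterns.

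**Figure D1:**
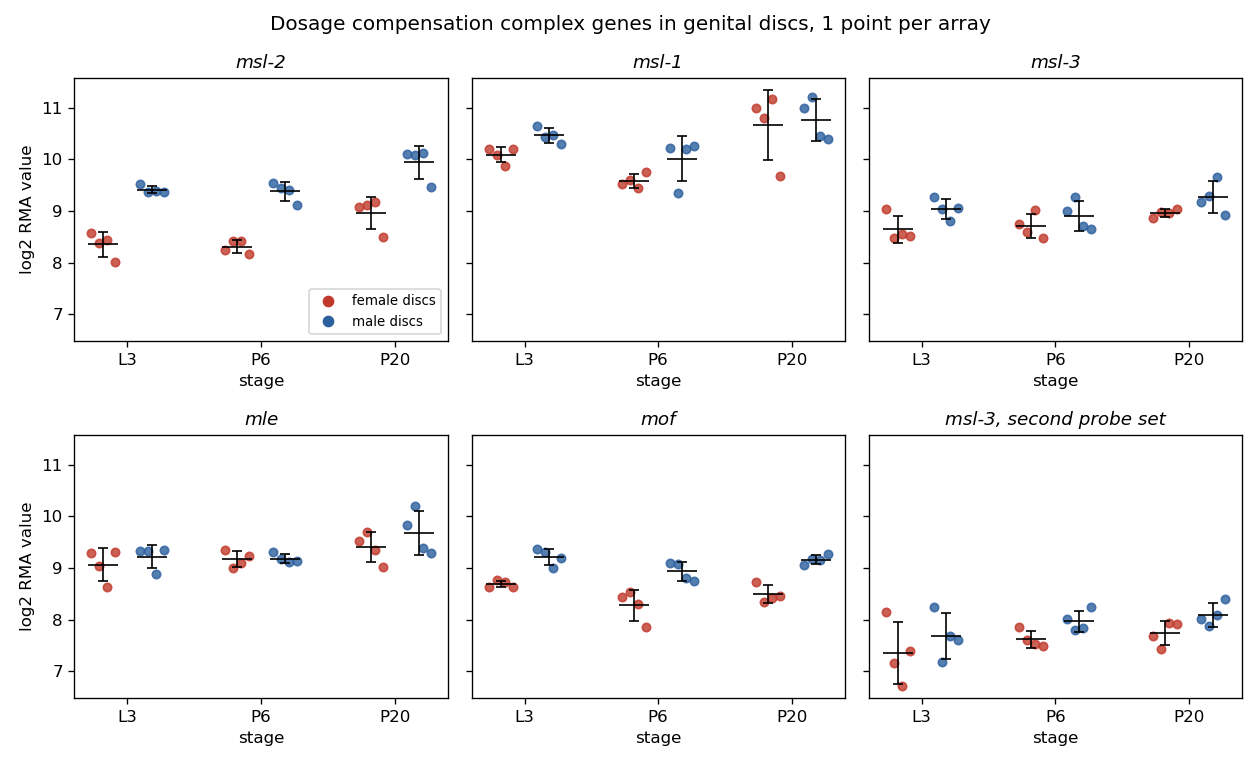
Log2 RMA value (y axis) of each member probe set at L3, P6 and P20 (x axis), 1 point per array, red for female and blue for male discs, with the group mean (horizontal bar) and SD (error bar, n = 4). The male points of msl-2 and mof lie above all female points of the same stage, while those of mle overlap them. The panels share an axis for display, and heights in different panels are different probe sets.

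The gene msl-2 encodes the RING-finger subunit that males make and on which the complex depends. Its values at L3 were 8.58, 8.37, 8.44 and 8.02 in female replicates 1 to 4 and 9.53, 9.37, 9.39 and 9.37 in male replicates 1 to 4. At P6 they were 8.24, 8.42, 8.41 and 8.16 in females and 9.54, 9.44, 9.42 and 9.12 in males. At P20 they were 9.08, 9.11, 9.18 and 8.50 in females and 10.11, 10.09, 10.12 and 9.46 in males. At each stage the lowest male array lay above the highest female array. The groups of the sexes did not overlap, with males higher, at all 3 stages for 36 of the 11982 genes (0.300%), among them msl-2 and mof.

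The group means of msl-2 were 8.35 ± 0.24 (SD, n = 4) in females and 9.42 ± 0.07 in males at L3, 8.31 ± 0.13 and 9.38 ± 0.18 at P6, and 8.97 ± 0.31 and 9.94 ± 0.32 at P20. Female minus male, the log2 difference was -1.06 ± 0.16 (SE) at L3 (limma adjusted p = 0.000382), -1.07 at P6 (adjusted p = 0.000161) and -0.98 at P20 (adjusted p = 0.000527). Averaged over the stages it was -1.04, with a 95% confidence interval from -1.23 to -0.84 and an adjusted p of 5.9e-08, which is a level 2.05-fold higher in males. By p-value this averaged difference ranked 43 among 11982 genes, and msl-2 was 1 of 23 genes (0.192%) that were lower in females past the threshold at each of the 3 stages. Its probe set read above 8 on every female array too.

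The gene mof encodes the histone acetyltransferase of the complex, which acetylates histone H4, and is itself X-linked. At L3 it read 8.64, 8.76, 8.72 and 8.64 in female replicates 1 to 4 and 9.37, 9.30, 9.00 and 9.20 in male replicates 1 to 4. At P6 the values were 8.43, 8.54, 8.30 and 7.86 in females and 9.10, 9.08, 8.81 and 8.75 in males, and at P20 they were 8.74, 8.35, 8.42 and 8.46 in females and 9.06, 9.17, 9.16 and 9.26 in males. Here too every male array lay above every female array of its stage, by the smallest margin at P6, where the lowest male array read 8.75 and the highest female array 8.54.

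The sex difference of mof was -0.53 ± 0.13 (SE) at L3, which missed the threshold (limma adjusted p = 0.0523), -0.65 at P6 (adjusted p = 0.0031) and -0.67 at P20 (adjusted p = 0.00344). Averaged over the stages it was -0.62, with a 95% confidence interval from -0.77 to -0.46 (adjusted p = 6.66e-06), which is a level 1.53-fold higher in males. The call at P6 was lost when arrays were centred on their medians (-0.56, adjusted p = 0.0556) and when only the P6 arrays entered the fit (adjusted p = 0.0652). The value at L3 passed with the replicate number as a block (adjusted p = 0.0403).

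Because mof lies on the X chromosome, its difference was set against that of the 1873 X-linked genes tested. At L3, 43 of them, mof included, had a female minus male difference as low as or lower than that of mof. The number was 70 at P6, 49 at P20 and 40 for the difference averaged over the stages. The median X-linked gene differed by 0.06 at L3, 0.05 at P6 and 0.05 at P20, so mof stood in the lower tail of its chromosome at each stage.

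The gene msl-1 encodes the scaffold subunit, which dimerises and holds the other proteins together. Its values at L3 were 10.20, 10.09, 9.88 and 10.20 in female replicates 1 to 4 and 10.64, 10.43, 10.48 and 10.29 in male replicates 1 to 4. At P6 they were 9.52, 9.59, 9.44 and 9.76 in females and 10.23, 9.36, 10.21 and 10.27 in males, and at P20 they were 11.00, 10.81, 11.17 and 9.68 in females and 11.00, 11.21, 10.46 and 10.38 in males. The sexes did not overlap at L3, as held with males higher for 1.47% of all genes, but they did at P6, through male replicate 2, and at P20. The sex difference of msl-1 was -0.37 at L3 (limma adjusted p = 0.934), -0.44 at P6 (0.56) and -0.10 at P20 (adjusted p above 0.99), and averaged over the stages it was -0.30 (95% confidence interval -0.61 to 0.0032, adjusted p = 0.303). Within groups msl-1 was the most variable member, with an SD of 0.38 against a median of 0.24 over all genes.

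The gene msl-3 encodes the chromodomain subunit, which binds methylated histone H3 over transcribed genes. The probe set with the higher signal averaged 8.65 ± 0.26 in females and 9.04 ± 0.19 in males at L3, 8.71 ± 0.23 and 8.91 ± 0.29 at P6, and 8.96 ± 0.08 and 9.26 ± 0.31 at P20. Female means were thus lower at each stage, with overlapping arrays at all of them, by 0.40, 0.20 and 0.30 log2 units. Averaged over the stages the difference of msl-3 was -0.30 (95% confidence interval -0.50 to -0.10), which missed the threshold at a limma adjusted p of 0.0731. The other probe set of msl-3 gave -0.33, -0.35 and -0.35 at the 3 stages and -0.34 on average (adjusted p = 0.168, among all probe sets). The averaged difference of msl-3 passed without L3 female replicate 1, an array with a high value of 9.03 (limma adjusted p = 0.0278), and under 6 of the other alternatives tried. Among these were the mean of both its probe sets (adjusted p = 0.0426) and the removal of both P20 replicate 4 arrays (0.0452), added after the data were seen. Over all alternatives the adjusted p ranged from 0.0217 to 0.219.

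The gene mle encodes the RNA helicase that loads the roX RNAs, and it also acts outside dosage compensation. Its means were 9.07 ± 0.32 in females and 9.22 ± 0.23 in males at L3, 9.17 ± 0.15 and 9.18 ± 0.09 at P6, and 9.40 ± 0.29 and 9.68 ± 0.42 at P20. Female and male arrays overlapped at every stage. The sex difference of mle was -0.15, -0.01 and -0.28 at L3, P6 and P20 and averaged -0.15 (95% confidence interval -0.37 to 0.08, limma adjusted p = 0.585). At P6 its interval ran from -0.40 to 0.38, which leaves room for a difference of the size seen for msl-3.

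**Figure D2:**
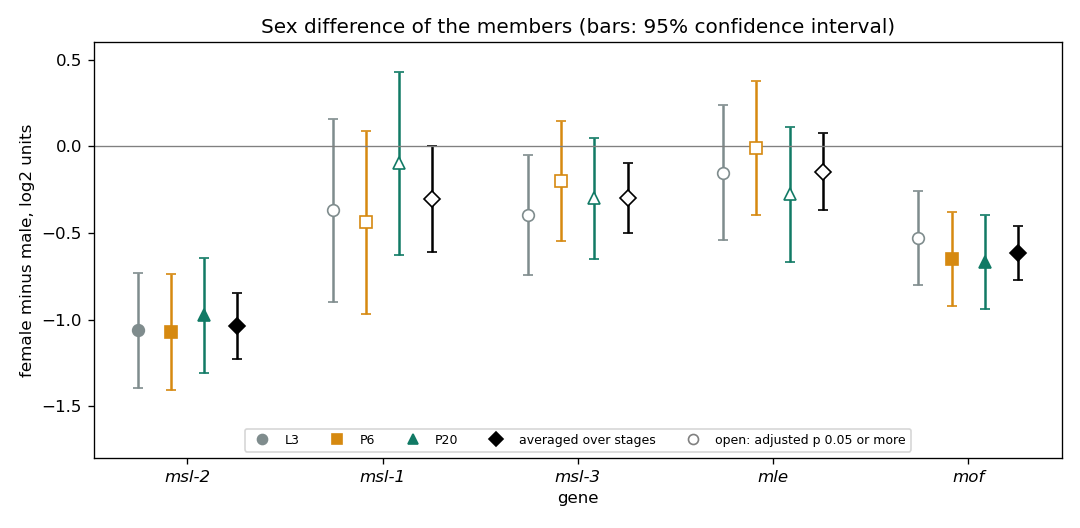
Female minus male difference (y axis, log2 units) of each member at L3, P6, P20 and averaged over the stages, with 95% confidence intervals from the limma fit on 24 arrays. Filled symbols passed an adjusted p of 0.05 over 11982 genes. The intervals of msl-2 all lie below -0.6 and those of mle all include 0.

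Counted over the members, 1 of 5 passed at L3, where 0.985% of all genes did in either direction and 0.618% lower in females. At P6 it was 2 of 5, against 4.83% and 3.72%, and at P20 2 of 5, against 2.35% and 1.65%. In the averaged difference 2 of 5 passed, against 6.47% of all genes and 4.47% lower in females. The median difference of the members was -0.40 at L3, -0.44 at P6, -0.30 at P20 and -0.30 on average, while that of all genes was 0.01, -0.01, -0.0013 and -0.00017.

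The interaction asks whether the sex difference itself changed between the stages. None of the 5 members passed it (limma F test, adjusted p above 0.99 for each, against 1.65% of all genes passing), and none had an unadjusted p under 0.05. For msl-2 the sex difference moved by -0.01 from L3 to P6 (95% confidence interval -0.48 to 0.46) and by 0.10 from P6 to P20 (-0.38 to 0.57). For mof it moved by -0.12 (-0.51 to 0.26) and by -0.02 (-0.40 to 0.37). These intervals are as wide as a large share of the difference itself, so a moderate change between stages was not detectable with 4 arrays a group.

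RNA of other tissues was looked for with marker lists, since a disc preparation can carry attached cells, and in such bulk samples fewer cells of a type and less RNA per cell cannot be told apart. Of 20 measured genes of the testis and male germline list, 0 passed between the sexes at L3 (2 with an unadjusted p under 0.05), 10 were lower in females at P6 and 4 at P20. Among all genes 3.72% were lower in females at P6 and 1.65% at P20. The summed linear signal of that list was 514 to 881 in L3 females and 486 to 2314 in L3 males, so the sexes overlapped there. It was 431 to 607 in females and 973 to 4961 in males at P6, and 499 to 570 and 956 to 3371 at P20. The sex difference of msl-2 was -1.06 at L3, -1.07 at P6 and -0.98 at P20, and that of mof -0.53, -0.65 and -0.67. The lowest group mean of a gene on the list was 2.91, for can. Of the 6 genital disc markers, 0 passed at L3 (4 with an unadjusted p under 0.05). At P6, 3 were lower in females, against 3.72% of all genes, and at P20, 1 was, against 1.65%. The part of any of these lists in the sex differences of msl-2 and mof was not tested. None of the 6 measured germline, 3 fat body and 6 muscle and myoblast genes passed between the sexes at any stage, with 1 of each list having an unadjusted p under 0.05, at L3. At P6, 1 of 8 hemocyte genes, Pxn, was lower in females (-0.88, limma adjusted p = 0.025), and 1 of 3 tracheal genes, vvl, was higher (1.10, adjusted p = 0.000578), both named after their values were seen; neither list had a call at L3 or P20.

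The stage course of the members was compared within each sex. Between L3 and P6, mof fell in females, by 0.41 log2 units (limma adjusted p = 0.0178), and was the only 1 of the 5 members to pass, against 35.6% of all genes, while 21.0% of all genes fell. In males 0 of 5 passed, against 34.8% of genes, with 1 unadjusted p under 0.05, that of mof (-0.28, adjusted p = 0.0949). The fall of mof in females did not pass without P6 female replicate 4, which read 7.86 (-0.27, adjusted p = 0.0947), or when only L3 and P6 females entered the fit (adjusted p = 0.0693). In the same interval msl-1 differed by -0.51 in females and -0.45 in males and missed the threshold (limma adjusted p = 0.125 and 0.183). Its P6 arrays lay below its L3 arrays without overlap in both sexes, as for 20.0% of all genes in females and 14.7% in males. The means of msl-2 differed by only -0.05 in females and -0.04 in males.

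Between P6 and P20, msl-1 and msl-2 rose in both sexes, 2 of 5 members in each. Among all genes 26.3% passed in females and 25.7% in males, and 14.2% and 13.1% rose. The change of msl-1 was 1.09 in females (limma adjusted p = 0.00242) and 0.75 in males (adjusted p = 0.0336). The change of msl-2 was 0.66 in females (adjusted p = 0.00344) and 0.56 in males (adjusted p = 0.0117). For mle it was 0.23 in females and 0.49 in males, the latter just outside the threshold (adjusted p = 0.0566), for msl-3 0.26 and 0.36, and for mof 0.21 and 0.23. The rise of msl-1 in males was not called without P6 male replicate 2 (0.53, adjusted p = 0.146), without P20 male replicate 1 (adjusted p = 0.0957), without P20 male replicate 2 (adjusted p = 0.123) or with those groups alone in the fit (adjusted p = 0.0546).

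From L3 to P20 the only member past the threshold was msl-2, which rose by 0.61 in females (limma adjusted p = 0.00426) and 0.53 in males (adjusted p = 0.0129). That is 1 of 5 members in each sex, where 39.9% of all genes passed in females and 38.1% in males, and 17.7% and 17.8% of all genes rose. The values of msl-1 were 0.57 (adjusted p = 0.0795) and 0.30 (0.375), and mof was near its larval level, at -0.20 and -0.06. With 5 members, 0 to 2 calls in comparisons where 25.7% to 39.9% of all genes were called lie near the background, and the stage results are given as values of these genes. Centring the arrays on their medians moved the median of all genes by up to -0.135, from L3 to P6 in males, and by 0.123 from P6 to P20 in males.

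**Figure D3:**
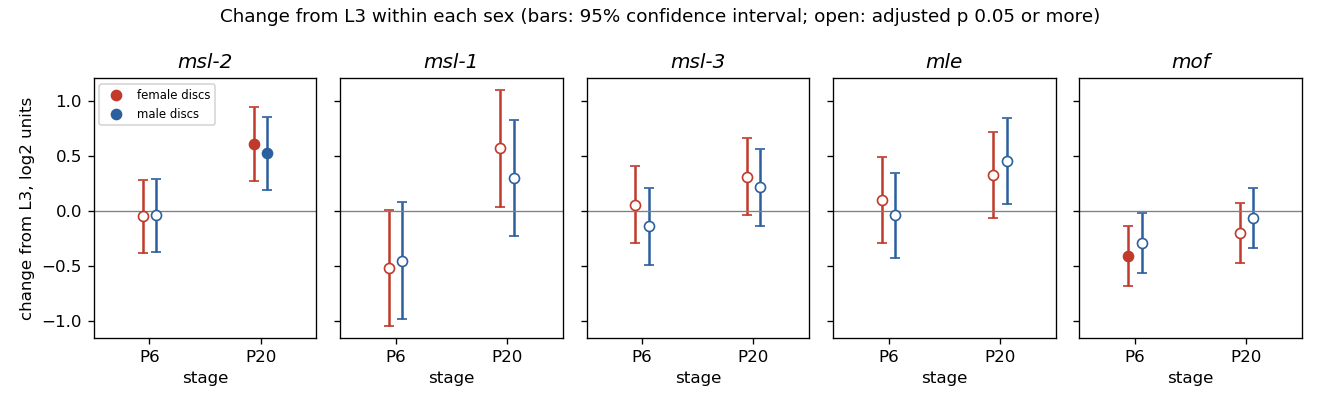
Change from L3 (y axis, log2 units) of each member at P6 and P20 (x axis) in female (red) and male (blue) discs, with 95% confidence intervals; filled points passed an adjusted p of 0.05. At P20 msl-2 was higher by 0.61 in females and 0.53 in males, and at P6 mof was lower by 0.41 in females.

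Other cell types also changed between the stages. Of 8 hemocyte genes 7 fell in females and 8 in males between L3 and P6, where 21.0% and 18.5% of all genes fell. Their summed linear signal went from 3554 to 13659 in L3 females and 3796 to 11700 in L3 males to 599 to 1140 and 737 to 1052 at P6. The summed signal of the 3 measured tracheal genes was 1687 to 3093 at L3 over both sexes, 12030 to 15055 at P6 and 736 to 1318 at P20. That sum is weighted towards serp, the brightest of the 3 in every group, and the list was split. From P6 to P20, 1 of the 3 rose and 2 fell in each sex, where 26.3% of all genes in females and 25.7% in males were called. For the 3 measured fat body genes the sum was 1694 to 15816 at L3 over both sexes, 11328 to 20938 at P6 and 6139 to 15495 at P20. Of 20 testis and male germline genes, 11 rose and 1 fell in males between L3 and P6, where 16.3% and 18.5% of all genes did. In females 1 rose and 1 fell, where 14.6% and 21.0% of all genes did. The part of any of these cell types in the stage differences of mof, msl-1 and msl-2 was not tested.

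The order of the 6 groups summarises each member. For msl-2 it ran from P20 males through L3 males, P6 males, P20 females and L3 females to P6 females, so that the 3 male groups came first, and its group means spanned 1.64 log2 units. For mof the male groups also came first, and the span was 0.94. For msl-1, with a span of 1.19, the P20 groups came first and the P6 groups last. The spans of msl-3, 0.62, and mle, 0.61, were slightly under the median of all genes, 0.65. Between neighbours in these orders the arrays overlapped, except between L3 males and L3 females for msl-1.

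At P20 each replicate number correlated best with the same number in the other sex over all genes (r of 0.11 to 0.42). The members were read there as 4 pairs, which the labels do not state. The female minus male difference of msl-2 was -1.03, -0.97, -0.94 and -0.96 in pairs 1 to 4, an SD of 0.037, although its level varied with an SD of 0.31 in females and 0.32 in males. Between same-numbered arrays at L3 and P6 the SD of the msl-2 difference was 0.20 and 0.16. At P20 the other members' pair differences were wider than those of msl-2. Females were lower in 4 of 4 pairs for mof (-0.82 to -0.32, SD 0.24) and mle (-0.49 to -0.05, SD 0.18), in 3 of 4 for the main probe set of msl-3 (-0.71 to 0.13, SD 0.34) and in 2 of 4 for msl-1 (-0.70 to 0.71, SD 0.61). Replicate 4 was the lowest array in both sexes for msl-2, with 8.50 and 9.46, for msl-1, with 9.68 and 10.38, and for mle, with 9.02 and 9.29. It was not the lowest for mof, which read 8.46 and 9.26 there. The replicate 4 male array had the lowest testis list sum of its group, 956, and the replicate 4 female array the highest of its group, 570.

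**Figure D4:**
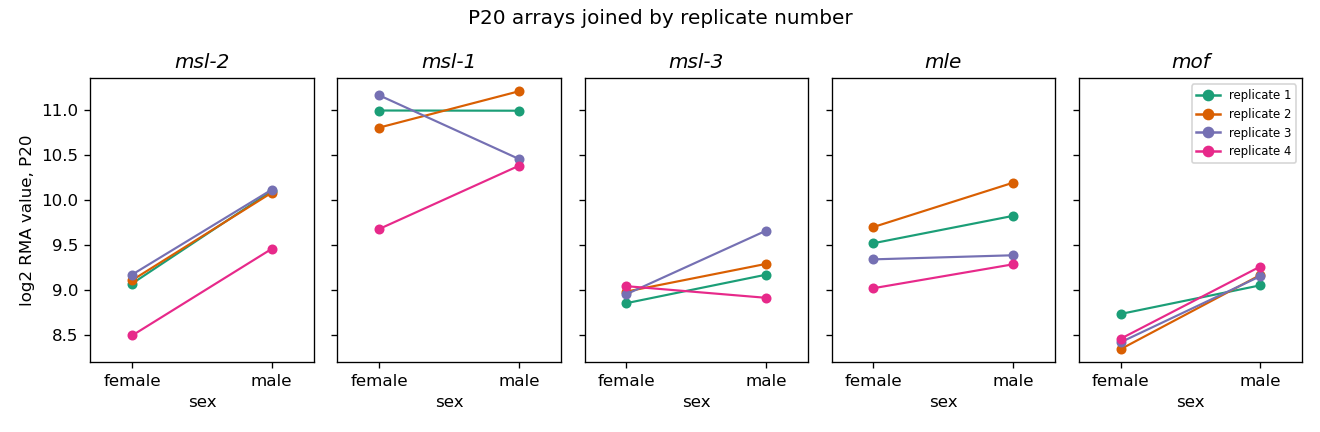
Log2 RMA values (y axis) of the members in P20 female and male arrays (x axis), with arrays of the same replicate number joined by a line and coloured by number. The 4 lines of msl-2 are nearly parallel, with differences from -1.03 to -0.94, and replicate 4 lies below the others in both sexes.

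Without both P20 replicate 4 arrays, a choice made after the values were seen, the rise from P6 to P20 was 0.81 in females and 0.72 in males for msl-2 and 1.41 and 0.87 for msl-1. The change of msl-1 from L3 to P20 in females, not called with all arrays, was then 0.90 (limma adjusted p = 0.00127), and mle rose by 0.62 from P6 to P20 in males (adjusted p = 0.0161). Calls of members over the 6 stage comparisons went from 7 to 11, and they were also 11 when only P20 female replicate 4 was left out. The sex difference of msl-2 at P20 was -0.98 with and without these arrays, and mof also passed without them (-0.62, adjusted p = 0.0429), whereas that of msl-1, not called either way, went from -0.10 to 0.10.

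Genes with the most similar course over the 6 groups were found by the root-mean-square difference between group means, each centred on the gene's own mean. For msl-2 they were salr (0.074), dsx (0.20) and Gbeta5 (0.20). The likeness of dsx rests on 1 of its 2 probe sets, and the other was higher in females by 4.99 averaged over the stages. The zinc finger transcription factor gene salr was lower in females by 0.97 averaged over the stages (limma adjusted p = 8.73e-08) and rose from P6 to P20 by 0.57 in females and 0.66 in males, close to the 0.66 and 0.56 of msl-2. Gbeta5, which encodes a G protein beta subunit, was lower in females by 0.98. For msl-1 the closest were pyd (0.096), lbk (0.098) and CLIP-190 (0.10). Among the members the closest courses were those of msl-3 and mle (0.10) and the farthest those of msl-2 and mle (0.46).

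Upstream of the complex, 12 of 15 sex determination genes were measured. In the averaged sex difference 1 was higher in females, 3 were lower and 8 did not pass. The share of all genes called in that comparison was 6.47% in either direction and 4.47% lower in females. The gene tra, whose female splice form directs female development, was higher in females by 0.80 (limma adjusted p = 4.1e-08), with 11.09 ± 0.11 in females and 10.17 ± 0.20 in males at L3. Lower in females were dpn, which opposes the activation of Sxl in the embryo, by 1.11 (adjusted p = 1.09e-05), dsx, the transcription factor gene at the bottom of the cascade, by 0.87 (adjusted p = 1.93e-07), and her, by 0.53 (adjusted p = 0.036). The median of the 12 was -0.07, against -0.00017 for all genes.

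Both dsx and Sxl are spliced differently in females and males, and their probe sets disagreed. The probe set used for dsx gave female minus male values of -0.91, -0.85 and -0.84 at L3, P6 and P20, and its other probe set gave 5.48, 4.67 and 4.82 (limma adjusted p at most 7.44e-16, among all probe sets). For Sxl the probe set used gave an averaged difference of -0.17 (adjusted p = 0.178), another gave -0.12 (adjusted p = 0.689), and the last of its 3 gave 1.66, higher in females (adjusted p = 1.59e-05). No such second probe set was on the array for msl-2, mof, msl-1 or mle in this table, so a difference between splice forms and a difference in total transcript cannot be told apart for them.

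Partners and regulators of the complex made up a further list, of which 13 of 19 genes were measured. None of the 13 passed in the averaged sex difference (limma, 1 with an unadjusted p under 0.05) or at L3, P6 or P20 (0, 2 and 0 with an unadjusted p under 0.05). Among all genes 6.47% were called in the averaged difference and 0.985%, 4.83% and 2.35% at L3, P6 and P20. Sxl, which is also on the sex determination list, entered with its brightest probe set. Another of its 3 probe sets was higher in females, by 1.66 on average (limma adjusted p = 1.59e-05, among all probe sets). The averaged value was 0.07 for Clamp, a zinc finger protein that brings the complex to GA-rich sites, -0.13 for JIL-1, a histone H3 kinase enriched on the male X, and -0.11 for Unr, the partner of Sxl in repressing msl-2. From L3 to P20 in females 9 rose and 3 fell, against 39.9% of all genes called, and in males 5 rose and 3 fell, against 38.1%. The median change of the 13 was 0.49 in females and 0.35 in males, while that of all genes was -0.03 and -0.02. Clamp rose by 0.47 in females and 0.56 in males, and Sxl by 0.54 and 0.40. Unr and JIL-1 rose in females by 0.65 and 0.57 and had values of 0.47 (adjusted p = 0.0709) and 0.29 (adjusted p = 0.292) in males. The 3 that fell in both sexes, named after their values were seen, were Mgtor, a nuclear pore protein gene, Set2, a histone H3 methyltransferase gene, and Iswi, a chromatin remodeller gene.

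The NSL complex, the other assembly that contains MOF, showed no called sex difference in any of its 5 measured genes of 6 (limma, 0 with an unadjusted p under 0.05 averaged over the stages or at any stage). Between L3 and P6, 4 of the 5 fell in females, and 2 fell and 1 rose in males, in a comparison where 35.6% and 34.8% of all genes were called. Their median change was -0.49 and -0.31, against -0.09 and -0.04 for all genes. Of 8 other histone acetyltransferase genes 7 were measured, and none of the 7 passed between the sexes (0 with an unadjusted p under 0.05 in the averaged difference or at any stage). Among all genes 6.47% were called in the averaged difference and 0.985% to 4.83% at single stages. With so few genes measured, 0 calls in either list lies near that background. The averaged difference of mof was -0.62, and the difference of these genes from mof was not itself tested.

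The chromosome the complex acts on was described by the median of X-linked minus that of autosomal genes on each array, each gene centred on its mean over arrays, a measure chosen after other values had been seen and given without a test. Over 1873 X-linked and 9950 autosomal genes it averaged 0.02 ± 0.03 in females and -0.0070 ± 0.010 in males at L3, with overlapping arrays. At P6 it was 0.022 ± 0.0074 and -0.034 ± 0.0061, and at P20 0.031 ± 0.023 and -0.029 ± 0.016, and the arrays of the sexes did not overlap at either stage. Female discs were thus higher on this measure by 0.028, 0.056 and 0.059 log2 units at L3, P6 and P20. The size and the overlap depended on the measure. Over the genes brighter than the median the differences were 0.050, 0.070 and 0.079, with overlap at L3 and P20. Without centring each gene they were 0.11, 0.17 and 0.11 over all genes, with overlap at L3, and 0.11, 0.11 and 0.092 over the brighter genes, with no overlap at any stage. RMA as usually run sets all arrays to a common distribution, so the measure is relative to the autosomes and not an absolute output per chromosome.

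**Figure D5:**
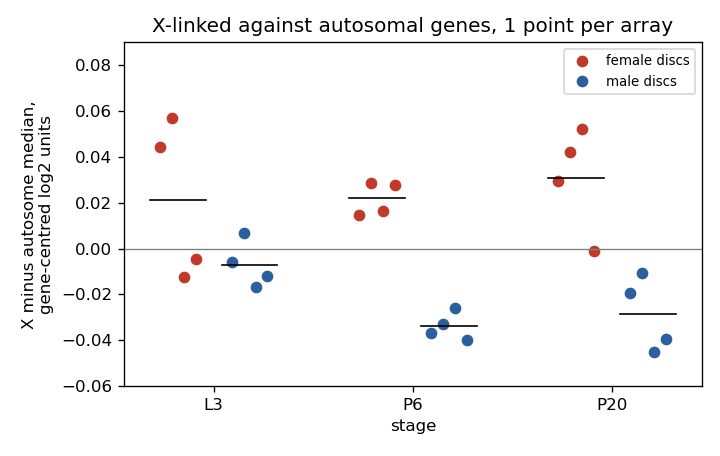
Median of X-linked genes minus median of autosomal genes (y axis, gene-centred log2 units) on each array at L3, P6 and P20 (x axis), red for female and blue for male discs; horizontal bars are group means. On this measure, over all genes, female and male arrays overlap at L3 and are apart at P6 and P20, where the means differ by 0.056 and 0.059.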

How the data were processed

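Total RNA of dissected genital discs was labelled and hybridised to Affymetrix arrays, 1 per sample. The authors deposited log2 values, 1 per probe set, from RMA per the submitters' processing notes; its version and settings, background levels and detection calls are not given in the sources used here, so signal over background is unknown. They were used as deposited. Of 18952 probe sets, 183 controls, 402 with several genes and 4720 with none were left out. Where a gene had several probe sets, that with the highest mean was kept, which gave 11982 genes. No filter was applied. Chromosomes come from a Release 6 gene table.

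One mean per group was fitted to all 24 arrays (limma 3.58.1 in R 4.3.3, lmFit and eBayes, 18 residual degrees of freedom), two-sided, with Benjamini-Hochberg adjustment over all genes of a comparison and a threshold of 0.05. The steps were tested on simulated data. The members and lists were chosen with earlier results of these data known. Named are all members, Sxl, tra, dsx, Unr, Clamp and JIL-1 whatever their values, up to 4 genes per list past the threshold in the averaged sex difference, and the 3 genes most like each member whose group means span 1 log2 unit or more, CG and CR numbers aside. The labels call the replicates biological and name no batch. Whether replicate numbers pair the arrays was checked by correlating deviations from group means over genes. At P20 the 4 same-numbered pairs had r of 0.11, 0.42, 0.24 and 0.40, and each number's best partner was the same number. At L3 the values were 0.68, 0.36, 0.31 and 0.07, and the best partner of number 4 was number 3. At P6 they were 0.28, 0.09, 0.03 and 0.23, and numbers 2 and 3 had other best partners. Reading the P20 arrays as pairs rests on these correlations, weak for number 1, and not on the labels. Alternatives were centring arrays on their medians, eBayes with trend and robust settings, a filter on dim genes, averaging probe sets per gene, testing each probe set by itself, fitting the compared groups alone, a replicate block over all arrays or within stages, array weights and leaving out each array. Leaving out both P20 replicate 4 arrays was added after the data were seen.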

Additional observations from a re-analysis of the deposited data

Results flagged for a closer look

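Within each group of 4 arrays, the gap of an extreme array to the nearest other array was divided by the group's range. Chance flags about 1 in 20 groups on this ratio. Of the 36 combinations of member probe set and group, 6 held an array that exceeded Dixon's 95% critical value for 4 arrays. For msl-2 these were P20 female replicate 4, at 8.50 where the others read 9.08 to 9.18, P20 male replicate 4, at 9.46 where the others read 10.09 to 10.12, and L3 male replicate 1, at 9.53 where the others read 9.37 to 9.39. For msl-1 it was P6 male replicate 2, at 9.36 against 10.21 to 10.27. For msl-3 it was L3 female replicate 1, at 9.03 against 8.48 to 8.56, and for mle it was L3 male replicate 3, at 8.88 against 9.32 to 9.34.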

How the results depend on the processing

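Of 535 values of single members under alternatives other than leaving out 1 array, 514 kept their side of the threshold. Another 17 passed only under the alternative, 4 no longer passed and 0 called values reversed. For leaving out each array in turn the counts were 1560, 1536, 20, 4 and 0, and for leaving out both P20 replicate 4 arrays 65, 60, 5, 0 and 0. Values that were not called could change sign. The sex difference of msl-1 at P20, for example, ranged from -0.27 to 0.23 over the alternatives. Calls of members over the 6 stage comparisons, 7 with all arrays, ranged from 6 to 11 when 1 array was left out and were 11 without the P20 replicate 4 arrays of both sexes. With the replicate block there were 6 calls over the 3 sex comparisons against 5, and 9 over the stage comparisons against 7; the added ones were mof at L3 (adjusted p = 0.0403) and mle in males from P6 to P20 and from L3 to P20 (0.0288 and 0.0306). At P20, where the arrays were read as pairs by number, the block within stages changed no call. The sex calls of msl-2 passed under every alternative run, with adjusted p up to 0.0174 in the comparisons at single stages. The depth of signal over background is not known, and the number of arrays limits the precision.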
